A study of Arabidopsis thaliana with 25 samples.

Results

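The 52 transcripts described here had a higher mean in MPK6ox seedlings than in wild-type (WT) seedlings in each of 4 pairs of groups, namely roots and shoots under hypoxia and under normoxia. Every array value is a log2 value, and a member had to average at least 0.7 log2 above WT over the 4 pairs. Of the 22746 probe sets on the arrays other than controls, 13513 carried exactly 1 gene, and 65 of these met both conditions. A set of 13 was left out by name, among them the oxidases AT1G26380, AT1G26410 and AT1G26420, OSM34, CCOAMT, ALDH2C4, SBT3.3, Prx37 and cytochromes of the CYP71B family. The remaining 52 probe sets stand for 52 different genes. The members were thus chosen by their values of MPK6ox minus WT, and those differences are given as a description without a test. The threshold did not fall into a gap: AT2G31945 (0.73) and AT3G09020 (0.73) were just inside it, and AT2G39210 (0.6985) and AT1G71140 (0.69) just outside.

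The study measured Affymetrix ATH1 arrays of roots and shoots cut from 10-day-old Arabidopsis thaliana Col-0 seedlings. MPK6ox carries the transgene 35s::MPK6, whose promoter is active in most plant tissues, mpk6 is a T-DNA insertion knockout of the same gene, and WT is Col-0 without either. For hypoxia, seedlings stood in a closed chamber with 99.998% argon, and for normoxia in an open box. The treatment lasted 2 h in the protocol, whereas the source names of hypoxic samples say 9 h, so its length is uncertain. There were 9 arrays of MPK6ox, 8 of mpk6 and 8 of WT, that is 2 arrays in each of the 12 groups of genotype, organ and treatment and 3 in hypoxic MPK6ox roots. The labels name biological replicates but give neither the number of transgenic lines nor of pooled plants, and p-values measure only the spread between these samples. The transcript of MPK6 was not analysed here and gave no check of the genotype labels.

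MPK6 is a mitogen-activated protein kinase, the last enzyme of a kinase cascade that passes signals from receptors at the cell surface to proteins in the nucleus and cytoplasm. In Arabidopsis it acts, together with its close relative MPK3, when receptor kinases perceive microbial patterns such as flagellin or chitin, and also in ethylene, wounding and developmental signalling. Known outputs of the cascade include transcription factors of the WRKY and ERF families and enzymes that make defence compounds.

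Both organs carried their markers. The mean of 5 measured photosynthesis genes (RCA, PRK, PSBW, PSAN and SBPASE) lay between 12.9 and 13.2 in shoots, and the mean of 3 measured root genes (PYK10, EXPA7 and EXPA18) lay between 11.1 and 11.7 in normoxic roots and between 8.08 and 8.54 in shoots. Hypoxic roots differed from normoxic roots in both measures, with photosynthesis means of 8.12 to 10.1 and root gene means of 9.50 to 10.2, against photosynthesis means of 6.25 to 8.18 in normoxic roots. In MPK6ox minus WT, averaged over the 4 pairs, 0 of the 5 photosynthesis genes and 0 of the 3 root genes passed the test, with differences between -0.30 and 0.23. The normoxic MPK6ox roots had photosynthesis means of 6.25 and 6.65, against 7.01 and 7.10 in normoxic WT roots. Replicate 1 of the hypoxic mpk6 roots stood apart in the RNA quality probes. Its 3' minus 5' signal was 1.09 for GAPDH, against 0.25 to 0.72 on the other arrays, and 2.15 for ubiquitin, against 1.36 to 1.68. Results in hypoxic mpk6 roots that moved without that array are also given without it.

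The 52 transcripts were on median 0.88 log2 higher in MPK6ox than in WT (1.84-fold), from 0.73 for AT2G31945 to 1.80 for AT3G08820, and 17 of them differed by 1 log2 or more. The differences were larger in shoots, with a median of 1.12, than in roots, with a median of 0.80, and 38 of the 52 had the larger difference in shoots. By pair, the median difference was 0.74 in hypoxic roots, 0.74 in normoxic roots, 0.98 in hypoxic shoots and 1.24 in normoxic shoots. Arrays of MPK6ox lay above those of WT without overlap for 36 members in hypoxic roots, 41 in normoxic roots, 50 in hypoxic shoots and 50 in normoxic shoots. Over all tested probe sets that was so for 14.6%, 15.5%, 16.8% and 15.2% in the same order of pairs. In all 4 pairs at once it was so for 29 members, and for 0.813% of all probe sets. These shares follow from the way the members were chosen. FACT was free of overlap in 1 pair only, and AT1G22690, AT3G23550, AT5G24210, AT5G64120, AT1G04800 and AT2G31945 in 2. A stricter reading asks that every MPK6ox array of an organ exceed every mpk6 and WT array of that organ. It held for 14 members in roots (0.418% of all probe sets), for 40 in shoots (1.39%), and for 12 in both organs. The share of all probe sets for both organs at once is not given. The condition includes MPK6ox above WT, so these counts, too, follow in part from the choice. These 12 were AT3G08820, AT5G38900, AT3G16530, AT3G24510, YLS5, AT5G28430, AT5G44990, AT4G26120, AT1G65690, AT5G48540, AT1G65500 and RALFL18.

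**Figure D1:**
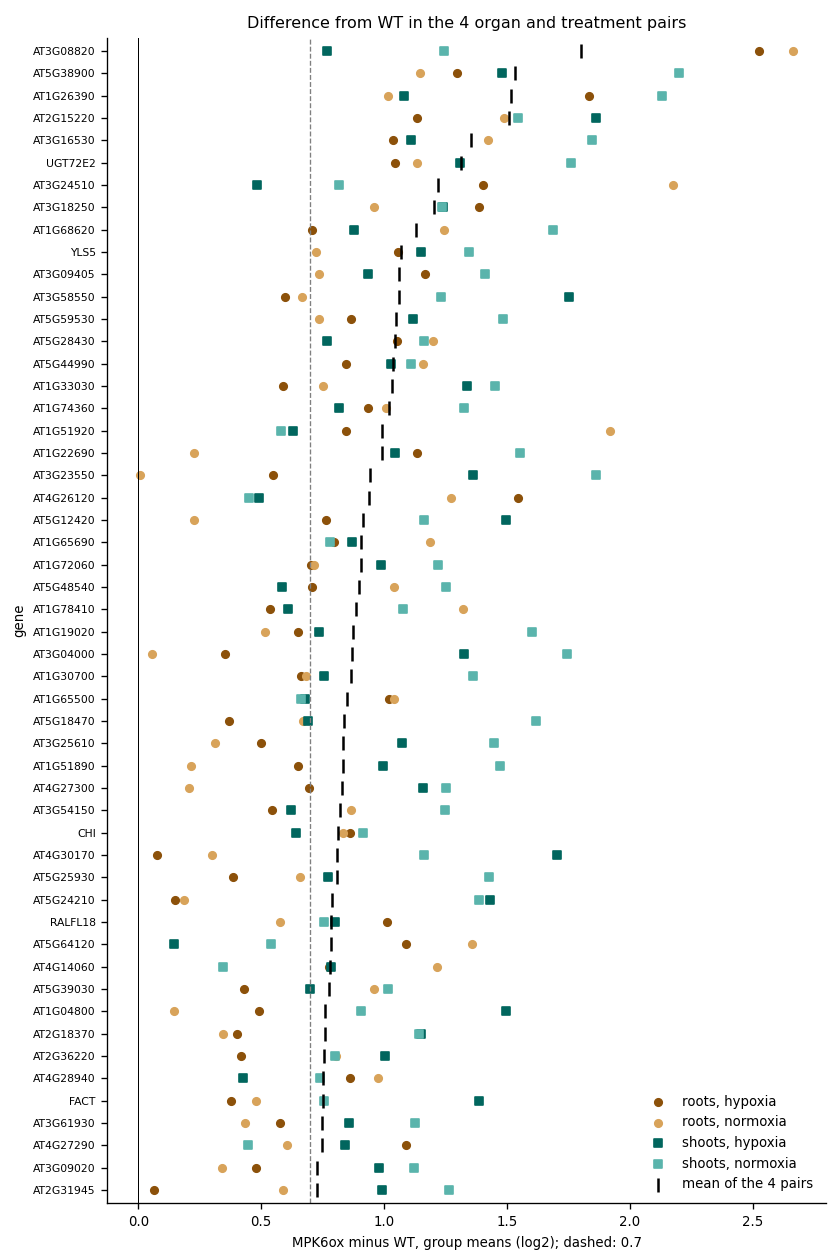
Each row is 1 of the 52 genes and each point is MPK6ox minus WT (difference of group means, log2) in 1 of the 4 organ and treatment pairs, with a vertical tick at the mean of the 4 pairs and a dashed line at 0.7. All points lie above 0, AT3G08820 has the highest mean (1.80), and in 38 rows the shoot difference (squares) exceeds the root difference (circles) on average.

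Receptors and signalling proteins made up 10 of the 52 members, with mean differences of 0.75 to 1.02. The leucine-rich repeat receptor kinases AT1G74360, AT1G51890 and AT5G25930, of a class that perceives peptides or microbial patterns at the plasma membrane, had mean differences of 1.02, 0.83 and 0.81. AT1G74360, a leucine-rich repeat receptor kinase, had 8.02, 9.01 and 8.39 in hypoxic MPK6ox roots, 5.98 and 7.09 in hypoxic mpk6 roots, and 7.01 and 8.06 in hypoxic WT roots. In normoxic roots it had 8.97 and 8.79 in MPK6ox, 7.67 and 7.88 in mpk6, and 7.55 and 8.19 in WT. In normoxic shoots it had 6.89 and 7.24 in MPK6ox, 5.22 and 5.92 in mpk6, and 5.30 and 6.18 in WT. The lowest hypoxic MPK6ox root thus overlapped the higher WT array, whereas the shoots were separate.

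AT4G26120, a relative of the salicylic acid receptor NPR1, differed mainly in roots, by 1.55 under hypoxia and 1.27 under normoxia, and by 0.49 and 0.45 in shoots. Its root arrays read 7.98, 8.06 and 8.10 in hypoxic and 8.24 and 8.36 in normoxic MPK6ox, against 6.09 and 6.92 in hypoxic and 6.76 and 7.29 in normoxic WT. All 5 MPK6ox root arrays were therefore above every WT root array. RALFL18, a peptide of the RALF family whose members are perceived by receptor kinases of the CrRLK1L type, differed by 0.57 to 1.01 in the 4 pairs. A kinase of that receptor type, AT5G39030, was itself a member with a mean difference of 0.78. AT1G22690, a gibberellin-regulated peptide, differed by 1.05 and 1.55 in hypoxic and normoxic shoots and by 1.14 in hypoxic roots, but by 0.23 in normoxic roots, where MPK6ox read 4.63 and 4.94 and WT 4.39 and 4.73. The VQ-motif protein AT1G78410, of a family that binds WRKY factors, had a mean difference of 0.89. The neighbouring S-locus lectin kinase genes AT4G27300 and AT4G27290 lie side by side on chromosome 4, with 0 protein-coding genes between them, and had mean differences of 0.83 and 0.75.

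Defence and secreted proteins made up 10 members, with mean differences of 0.78 to 1.51, and 7 of them did not overlap WT in any pair. AT2G15220, a plant basic secretory protein, had the largest. Its shoot arrays read 6.83 and 8.34 in hypoxic and 6.77 and 7.88 in normoxic MPK6ox, against 5.50 and 5.96 in hypoxic and 5.73 and 5.82 in normoxic WT. Its replicates were far apart within each MPK6ox shoot group, yet the lowest MPK6ox shoot array exceeded the highest WT one. Its probe set may also detect related transcripts, by its design code.

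AT3G16530, a legume-type lectin, had 10.57, 10.73 and 10.82 in hypoxic MPK6ox roots, 8.41 and 8.57 in hypoxic mpk6 roots, and 9.69 and 9.66 in hypoxic WT roots. In normoxic roots it had 11.75 and 11.46 in MPK6ox, 9.40 and 9.23 in mpk6, and 9.96 and 10.41 in WT. The 3 genotypes were ordered in the same way in both root groups, with mpk6 lowest. In shoots it had 12.22 and 12.90 in hypoxic and 12.56 and 13.03 in normoxic MPK6ox, against 11.35 and 11.56 in hypoxic and 10.43 and 11.47 in normoxic WT.

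AT3G24510, a defensin-like peptide, showed its larger differences in roots. The MPK6ox root arrays read 6.72, 5.58 and 6.41 under hypoxia and 7.48 and 6.61 under normoxia. The mpk6 root arrays ranged from 5.08 to 5.28, and the WT root arrays read 4.83 and 4.83 under hypoxia and 4.70 and 5.04 under normoxia. The spread among MPK6ox roots was wide, but no MPK6ox array reached down to a WT or mpk6 array. In shoots the difference was 0.48 under hypoxia and 0.82 under normoxia.

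The chitinase CHI (AT2G43570), of the enzymes that cut the chitin of fungal walls, differed by 0.64 to 0.91 in the 4 pairs. AT1G65690, related to the defence protein NDR1, differed by 0.78 to 1.19, and AT5G48540, a cysteine-rich secretory protein, by 0.59 to 1.25. The mannose-binding lectin AT5G18470 differed by 1.62 in normoxic shoots and by 0.37 in hypoxic roots. The class III peroxidases AT5G64120 and AT4G30170, which use peroxide at the cell wall, had opposite preferences. AT5G64120 differed by 1.09 and 1.36 in hypoxic and normoxic roots and by 0.15 and 0.54 in shoots. AT4G30170 differed by 0.07 and 0.30 in hypoxic and normoxic roots and by 1.71 and 1.16 in shoots.

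**Figure D2:**
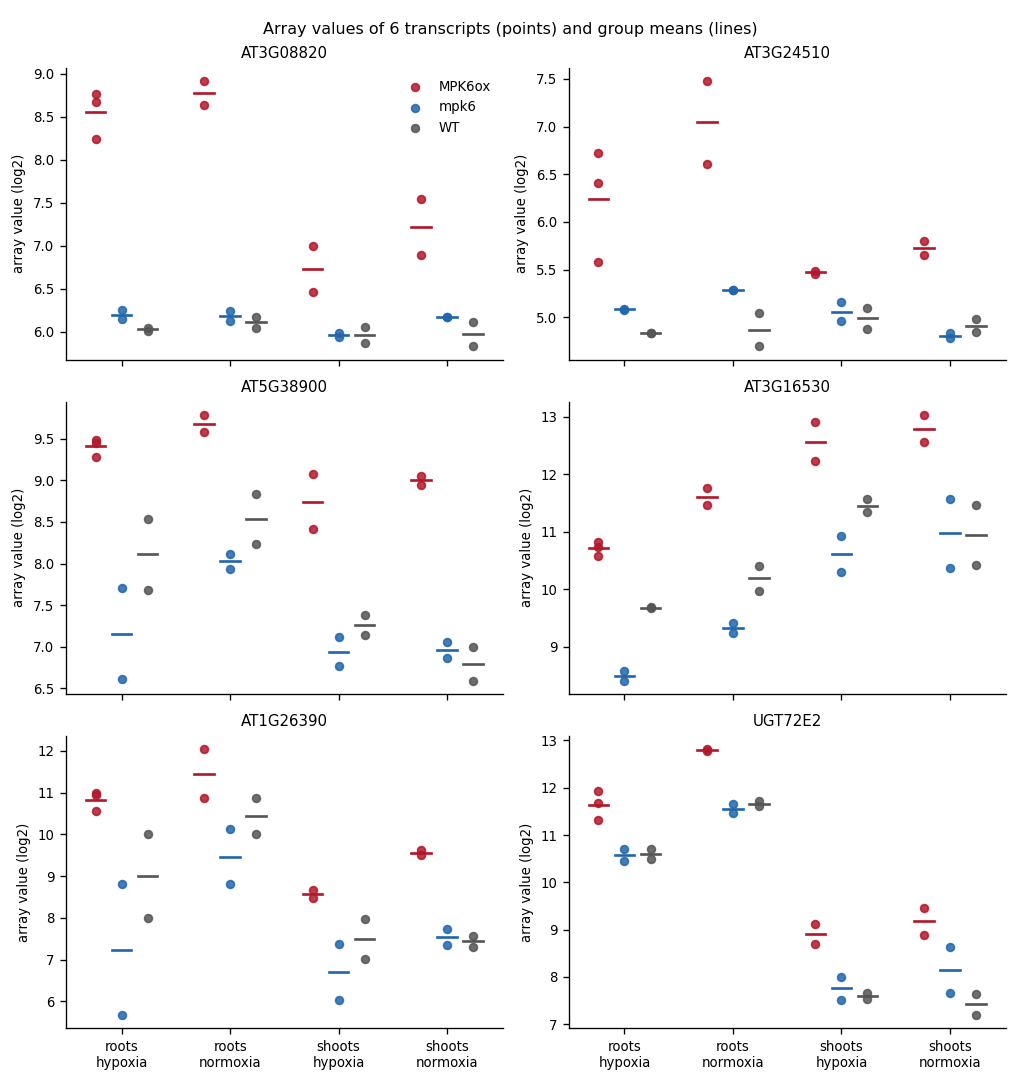
Points are the log2 values of single arrays and short lines the group means of 6 transcripts, with MPK6ox, mpk6 and WT side by side in hypoxic roots, normoxic roots, hypoxic shoots and normoxic shoots. MPK6ox lies above WT without overlap in every panel and group, but only just for AT1G26390 in normoxic roots (lowest MPK6ox array 10.8741, highest WT array 10.8714), and mpk6 is lowest in the root groups of AT3G16530.

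Enzymes and transporters of redox and secondary metabolism formed the largest class, with 13 members, a median mean difference of 1.04, and 12 of 13 differing more in shoots. AT5G38900, a thioredoxin-fold protein, had 9.28, 9.49 and 9.45 in hypoxic MPK6ox roots, 6.61 and 7.71 in hypoxic mpk6 roots, and 7.69 and 8.53 in hypoxic WT roots. In normoxic shoots it had 8.95 and 9.05 in MPK6ox, 6.87 and 7.06 in mpk6, and 6.60 and 6.996 in WT, a difference of 2.20 from WT. Its MPK6ox arrays exceeded all others in both organs.

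AT1G26390 encodes an oxidase of the berberine-bridge type, a family in which some members act on defence metabolites and oligosaccharides. In hypoxic roots it had 10.57, 10.95 and 10.99 in MPK6ox, 5.68 and 8.80 in mpk6, and 8.00 and 10.00 in WT. In normoxic roots it had 10.87 and 12.04 in MPK6ox, 8.82 and 10.12 in mpk6, and 10.01 and 10.87 in WT. In shoots it had 8.48 and 8.67 in hypoxic and 9.63 and 9.50 in normoxic MPK6ox, against 7.98 and 7.01 in hypoxic and 7.29 and 7.57 in normoxic WT. MPK6ox and WT were only just apart in normoxic roots, and 1 hypoxic mpk6 root array was much lower than the other. A second oxidase of this type, AT1G30700, differed by 0.66 to 1.36.

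UGT72E2, a glucosyltransferase that acts on the monolignol precursors of lignin, had 11.94, 11.32 and 11.68 in hypoxic MPK6ox roots, 10.45 and 10.70 in hypoxic mpk6 roots, and 10.71 and 10.49 in hypoxic WT roots. In normoxic roots it had 12.79 and 12.81 in MPK6ox, 11.47 and 11.65 in mpk6, and 11.61 and 11.72 in WT. Within each treatment the mpk6 and WT root arrays were intermixed, and both lay below MPK6ox, but the hypoxic MPK6ox roots overlapped the normoxic roots of mpk6 and WT. In shoots it had 8.71 and 9.11 in hypoxic and 8.89 and 9.47 in normoxic MPK6ox, against 7.53 and 7.66 in hypoxic and 7.20 and 7.64 in normoxic WT.

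YLS5, of the DJ-1 family, had 12.36, 12.58 and 12.40 in hypoxic and 12.55 and 12.72 in normoxic MPK6ox roots, against 11.01 and 11.77 in hypoxic and 11.78 and 12.04 in normoxic WT roots. The MPK6ox arrays lay within a narrow range above all WT root arrays. AT1G68620, a carboxylesterase-type hydrolase, had 10.15, 11.39 and 10.80 in hypoxic MPK6ox roots against 9.08 and 11.06 in hypoxic WT roots, so these arrays overlapped. In normoxic shoots it had 9.37 and 9.61 in MPK6ox against 7.40 and 8.19 in WT.

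AT5G59530, a 2-oxoglutarate-dependent oxygenase, had 9.39, 9.56 and 9.29 in hypoxic and 10.25 and 9.88 in normoxic MPK6ox roots, against 8.36 and 8.74 in hypoxic and 9.44 and 9.22 in normoxic WT roots. AT5G44990, of the glutathione transferase family, had 6.57, 7.84 and 6.56 in hypoxic and 7.17 and 7.33 in normoxic MPK6ox roots, against 5.88 and 6.41 in hypoxic and 5.97 and 6.21 in normoxic WT roots. Neither overlapped WT in any pair. The short-chain dehydrogenase AT3G04000 and the MATE-type efflux transporter AT3G23550 differed in shoots, by 1.33 and 1.74 and by 1.36 and 1.86 in hypoxia and normoxia. In normoxic roots their differences were 0.06 and 0.01.

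Proteins of lipids, barriers and the cell wall made up 8 members, and all 8 differed more in shoots. AT3G58550 and AT2G18370, both of the lipid-transfer type, and FACT, a transferase that joins caffeic acid to the fatty alcohols of root waxes, had higher values in roots than in shoots. AT3G58550 had 10.35, 10.28 and 10.29 in hypoxic MPK6ox roots, 7.94 and 8.32 in hypoxic mpk6 roots, and 9.45 and 9.97 in hypoxic WT roots. Its shoot arrays read 7.27 and 7.48 in hypoxic and 7.13 and 7.34 in normoxic MPK6ox, against 5.45 and 5.81 in hypoxic and at most 6.0062 in normoxic WT. MPK6ox was highest in both organs, and mpk6 was far below WT in roots but not in shoots. FACT had 9.33, 9.84 and 8.98 in hypoxic MPK6ox roots against 8.37 and 9.64 in hypoxic WT roots, which overlapped, and 6.46 and 7.10 in hypoxic MPK6ox shoots against 5.28 and 5.51 in hypoxic WT shoots.

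The pectin acetylesterase AT3G09405 had 8.35, 8.27 and 8.46 in hypoxic and 7.89 and 7.95 in normoxic MPK6ox roots, against 7.15 and 7.25 in hypoxic and 7.24 and 7.12 in normoxic WT roots. Its shoot arrays read 8.62 and 8.40 in hypoxic and 8.35 and 8.67 in normoxic MPK6ox, against 7.65 and 7.49 in hypoxic and 7.04 and 7.16 in normoxic WT. MPK6ox was separate from WT in each pair. The remaining members of this class were AT5G12420, of the wax ester synthase type, the phospholipid flippase AT3G25610, the class 3 lipase AT5G24210 and the glycosyltransferase AT3G09020, with mean differences of 0.91, 0.83, 0.79 and 0.73. AT5G24210 differed by 1.43 and 1.39 in hypoxic and normoxic shoots and by 0.15 and 0.19 in roots.

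Of the 11 other members, AT3G08820 had the largest difference of all. It encodes a pentatricopeptide repeat protein, a family of RNA-binding proteins of mitochondria and chloroplasts. In roots it had 8.24, 8.77 and 8.67 in hypoxic and 8.91 and 8.63 in normoxic MPK6ox, against 6.01 and 6.05 in hypoxic and 6.17 and 6.05 in normoxic WT. The mpk6 root arrays read 6.25 and 6.15 under hypoxia and 6.12 and 6.24 under normoxia. In shoots it had 6.46 and 6.9997 in hypoxic and 6.90 and 7.54 in normoxic MPK6ox, against 5.87 and 6.06 in hypoxic and 5.83 and 6.11 in normoxic WT. WT and mpk6 lay within a narrow band in all groups, and MPK6ox stood 2.53 and 2.66 above WT in hypoxic and normoxic roots but 0.77 and 1.24 in shoots.

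AT3G18250, a putative membrane lipoprotein, had 8.61, 9.96 and 9.64 in hypoxic MPK6ox roots against 7.08 and 8.95 in hypoxic WT roots, which overlapped. In hypoxic shoots it had 8.43 and 8.45 in MPK6ox against 7.36 and 7.04 in WT. AT5G28430 had 6.30, 6.27 and 6.27 in hypoxic and 6.08 and 5.98 in normoxic MPK6ox roots, against 5.19 and 5.26 in hypoxic and 4.84 and 4.81 in normoxic WT roots. Its replicates were close and its groups well apart, although its probe set, too, may detect related transcripts. AT1G51920 differed by 1.92 in normoxic roots and by 0.58 to 0.84 elsewhere. It lies on chromosome 1 with 4 protein-coding genes between it and the member AT1G51890. No other pair lay within 10 protein-coding genes of each other among the 51 members placed in the order of protein-coding genes. The 52 genes were spread over the chromosomes as 14, 7, 12, 6 and 13. AT1G26390 lies beside oxidase genes that the choice of members left out.

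In the knockout, the same transcripts were mostly near WT, and below it more often than above it in 3 of the 4 pairs. The differences of mpk6 from WT use the WT arrays that also chose the members, so they are given side by side without a test. The median of mpk6 minus WT was -0.27 in hypoxic roots, -0.18 in normoxic roots, -0.14 in hypoxic shoots and 0.07 in normoxic shoots, beside medians of 0.74, 0.74, 0.98 and 1.24 for MPK6ox minus WT. Members below WT numbered 38, 35, 37 and 23 in these pairs. The median over all probe sets lay between -0.00 and 0.04. In hypoxic roots the median was 0.00, with 26 members below 0, without replicate 1 of mpk6, the array that stood apart, and -0.36, with 37 members below 0, when replicate 2 of mpk6 was set against replicate 2 of WT.

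Some members were well below WT in mpk6 roots. AT3G58550 was at -1.58 in hypoxic and -1.21 in normoxic roots, AT2G18370 at -1.73 and -1.21, FACT at -1.46 and -0.99, and AT4G14060, of the major latex protein-like family, at -0.90 and -1.03. In shoots the same 4 transcripts were between 0.08 and 0.75 above WT. Without replicate 1 of the hypoxic mpk6 roots, the first 4 were still at -1.39, -1.38, -1.49 and -0.87 in hypoxic roots. AT1G26390 was at -1.76 in hypoxic roots with both mpk6 arrays, at -0.20 without replicate 1, and at -1.20 when only the replicates numbered 2 were compared. AT3G16530 was at -1.18, -0.87 and -0.84 in hypoxic roots, normoxic roots and hypoxic shoots, and at 0.02 in normoxic shoots. A group of 10 members was below WT in all 4 pairs (AT3G18250, AT1G68620, YLS5, AT5G44990, AT1G74360, AT4G26120, AT5G18470, CHI, AT5G25930 and AT2G31945), and 3 were above it in all 4 (AT3G23550, AT4G30170 and AT3G61930). The share of all probe sets on the same side of WT in all 4 pairs is not given, so these counts are only a description. Without replicate 1 of the hypoxic mpk6 roots, 6 of the 10 and 2 of the 3 kept their side. In hypoxic roots AT3G18250, AT1G68620, YLS5 and AT4G26120 then stood at 0.07, 0.18, 0.22 and 0.10, and AT4G30170 at -0.090. The peroxidase AT4G30170 was 1.26 and 1.46 above WT in hypoxic and normoxic mpk6 shoots, close to its 1.71 and 1.16 in MPK6ox shoots. AT3G61930 was 0.69 and 1.11 above WT in hypoxic and normoxic mpk6 roots, more than its 0.58 and 0.43 in MPK6ox roots.

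**Figure D3:**
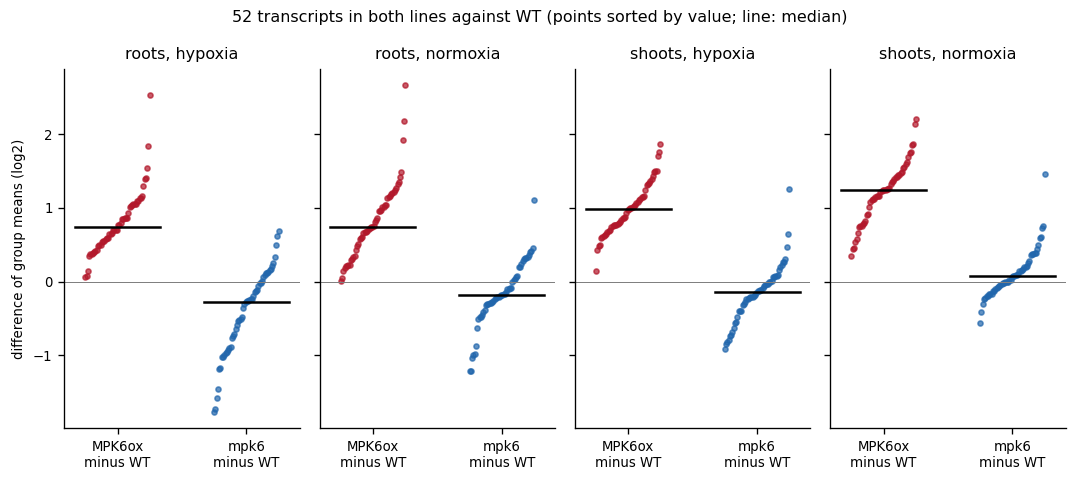
Each point is 1 of the 52 transcripts, sorted by value, as MPK6ox minus WT (left in each panel) and mpk6 minus WT (right), for hypoxic roots, normoxic roots, hypoxic shoots and normoxic shoots, in differences of group means (log2), with a line at the median. The MPK6ox points lie above 0 because they were chosen so, and the mpk6 medians run from -0.27 to 0.07.

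Most members were higher in roots than in shoots, a difference that the choice of members did not use. In normoxia, averaged over the 3 genotypes, 37 of the 52 were higher in roots and 11 higher in shoots in limma's moderated test at an adjusted p under 0.05, against 30.4% and 26.5% of all probe sets. The members' shares were 71.2% and 21.2%, and their median difference, roots minus shoots, was 1.43, against -0.01 over all probe sets. These shares were not matched for signal level. Of the dimmest 5687 probe sets 0 were members, and the median level was 7.69 for members and 7.08 over all probe sets. The mpk6 arrays, which had no part in choosing the members, gave 29 higher in roots and 9 higher in shoots (21.5% and 18.0% of all probe sets) and a median of 1.42. The spread in that test was estimated from all 25 arrays, those of MPK6ox and WT included. In such bulk samples, a higher share of cells that use a gene and more RNA per cell cannot be told apart.

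The largest excess in roots belonged to the peroxidase AT4G30170 (5.05 ± 0.25, fitted log2 difference and SE, limma adjusted p = 1.29e-11), followed by AT5G59530 (4.30), AT2G18370 (4.01), AT3G58550 (3.97) and UGT72E2 (3.76). In normoxic roots AT4G30170 read 13.04 and 13.10 in MPK6ox, 13.03 and 13.15 in mpk6, and 12.66 and 12.89 in WT, and in normoxic shoots 7.96 and 8.47, 7.81 and 9.22, and 6.73 and 7.37 in the same order of genotypes. The largest excess in shoots belonged to AT1G22690 (-5.65 ± 0.25, limma adjusted p = 3.14e-12), followed by AT4G27300 (-3.62), AT3G23550 (-2.85), AT3G04000 (-2.67) and AT5G24210 (-2.26). In the mpk6 arrays alone these last 5 stood at -4.89, -3.64, -2.18, -2.05 and -1.91, and AT4G30170 at 4.57. The adjacent genes AT4G27300 and AT4G27290 had opposite organ preferences, at -3.62 and 3.19. AT3G09405, AT1G33030, AT1G65500 and AT2G36220 did not pass the test between organs. Of the 48 calls 47 held when each array was left out in turn. The exception was AT1G72060 (-1.44), whose adjusted p was 0.0522 without replicate 1 of the normoxic mpk6 roots.

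The differences of MPK6ox from WT were also split by the organ calls of the mpk6 arrays. For the 9 members higher in mpk6 shoots the median of MPK6ox minus WT was 0.45 in roots and 1.30 in shoots, and 8 of the 9 differed more in shoots. For the 29 members higher in mpk6 roots the medians were 0.85 in roots and 1.07 in shoots, and 21 differed more in shoots. The root gene markers averaged 8.37 and 8.35 in normoxic MPK6ox shoots, above the 8.21 and 8.24 of normoxic WT shoots. The normoxic mpk6 shoots stood higher still, at 8.43 and 8.54. In the means of normoxic MPK6ox and WT shoots, EXPA18 read 5.98 and 5.68, PYK10 13.79 and 13.66, and EXPA7 5.32 and 5.34. In hypoxic shoots the root gene markers averaged 8.28 and 8.23 in MPK6ox, 8.08 and 8.43 in mpk6, and 8.27 and 8.22 in WT. Among these markers PYK10 was only 0.88 higher in roots than in shoots in normoxia, beside 4.01 for EXPA7 and 4.28 for EXPA18.

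**Figure D4:**
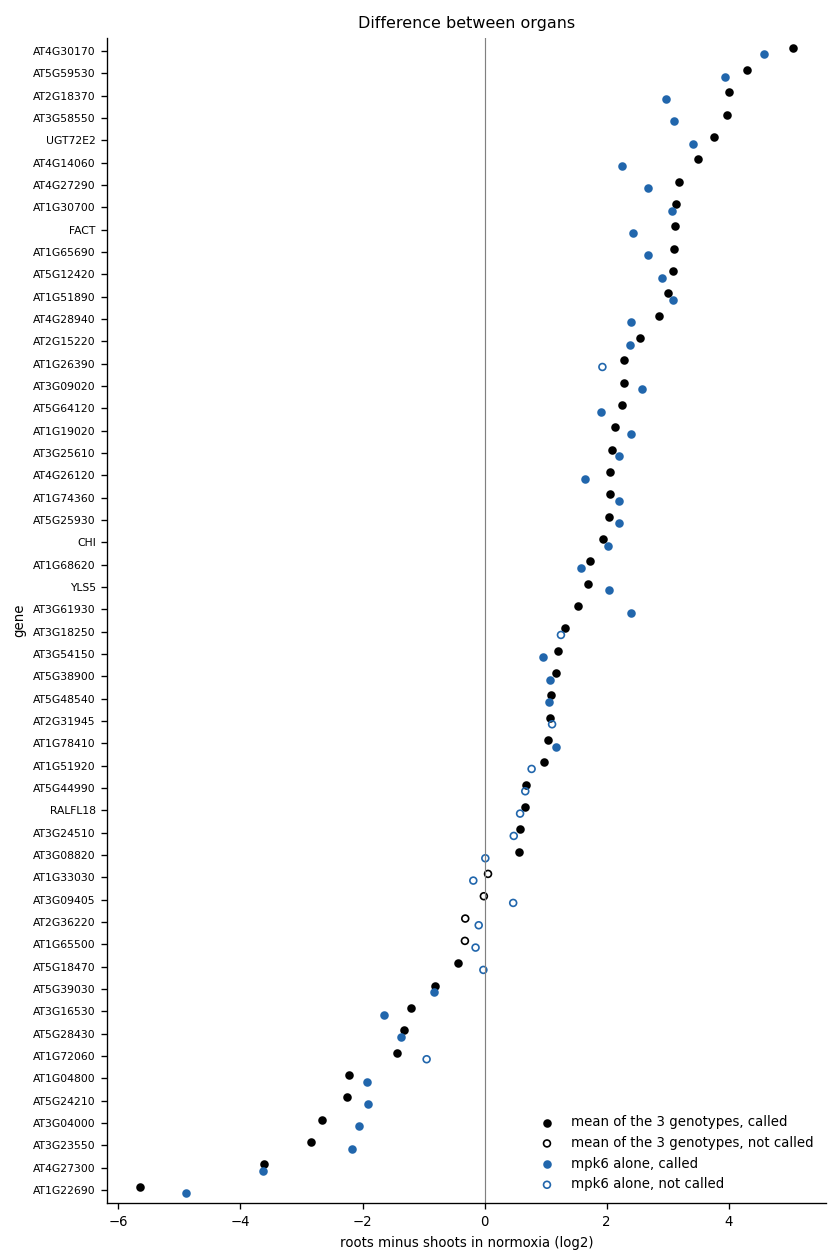
Each row is 1 of the 52 genes, with roots minus shoots in normoxia (log2) as the mean of the 3 genotypes (black) and in mpk6 alone (blue). Filled points passed limma's test at an adjusted p under 0.05, 37 to the right of 0 and 11 to the left for the mean of the genotypes, from 5.05 for AT4G30170 to -5.65 for AT1G22690.

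Under hypoxia, the members changed more in roots than in shoots, and mostly downwards. Averaged over the 3 genotypes, 16 members fell and 5 rose in hypoxic roots by limma's test at an adjusted p under 0.05, with a median change of -0.32 over the 52. Of all probe sets 14.8% fell and 9.5% rose, with a median of 0.01, against 30.8% and 9.62% of the members. Most members were higher in roots, and of the 37 such members 40.5% fell, beside 34.5% of all probe sets that were higher in roots. These shares are a description, since both comparisons use the normoxic root arrays. The falls belonged to 6 of the 13 redox and metabolic proteins, 3 of the 10 receptor and signalling proteins, 2 of the 10 defence proteins, 2 of the 8 lipid and wall proteins and 3 of the 11 others.

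In the same arrays, all 5 photosynthesis markers rose, by 1.49 to 2.08, and all 3 root markers fell, by 0.32 to 2.37, in hypoxic roots. With the photosynthesis mean of the root arrays as a covariate, an alternative chosen after seeing the data, 3 members were called lower (AT1G74360, AT3G18250 and AT3G58550) and 0 higher, of which AT3G58550 is among the 16. The share of all probe sets called with the covariate is not given here. All 16 falls kept their direction with the covariate and 12 were larger, with a median of -0.98 with it and -0.78 without it, while the median SE was 0.35 with it and 0.18 without it. AT1G26390 was then at -2.63 and AT5G38900 at -1.20, whereas UGT72E2 was at -0.67 and AT4G30170 at -0.65. Of the 5 rises 4 changed sign. AT1G22690, AT3G23550, AT1G72060 and AT4G27290, which rose, then had changes of -0.042, -0.050, -0.21 and -0.17. These sizes and signs are a description, since the covariate itself moved with hypoxia (8.12 to 10.1 in hypoxic roots, 6.25 to 8.18 in normoxic roots). The part of these markers in the hypoxia result was not tested.

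The lipid-transfer protein AT3G58550 fell by 1.12 ± 0.16 in hypoxic roots (limma adjusted p = 4.41e-05) and by 1.48 with the covariate (adjusted p = 0.011). Its change was -1.05 in MPK6ox, -1.34 in mpk6 and -0.98 in WT roots. AT3G61930 fell by 1.23 (adjusted p = 4.90e-06 in limma), AT4G30170 by 1.27 and UGT72E2 by 1.07, each with a lower mean under hypoxia in the roots of all 3 genotypes. The oxidase AT1G26390 fell by 1.43 (limma adjusted p = 0.0276), with -0.62 in MPK6ox, -2.23 in mpk6 and -1.44 in WT. The mpk6 value rests largely on replicate 1 of the hypoxic roots, the array that stood apart. That array read 5.68 and replicate 2 read 8.80, against 8.82 and 10.12 in normoxic mpk6 roots. Its call was lost without any of 5 arrays: hypoxic mpk6 root replicate 1 (-0.91, limma adjusted p = 0.0943), normoxic MPK6ox root replicate 2 (0.0835), normoxic mpk6 root replicate 2 (0.0886), hypoxic WT root replicate 1 (0.101) and normoxic WT root replicate 2 (0.0774).

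AT2G36220 rose by 1.67 ± 0.24 in hypoxic roots (limma adjusted p = 5.43e-05). Its hypoxic and normoxic root arrays read 10.52, 11.21 and 10.94 against 9.23 and 9.30 in MPK6ox, 9.49 and 10.92 against 8.62 and 9.09 in mpk6, and 10.24 and 10.71 against 7.98 and 8.93 in WT. The hypoxic arrays were above the normoxic ones in each genotype. The protease inhibitor AT1G72060 rose by 1.57, AT1G22690 by 1.55, AT4G27290 by 0.84 and AT3G23550 by 0.49. The call of AT1G72060 was lost without mpk6 root replicate 1 of normoxia (limma adjusted p = 0.0656) or 2 of hypoxia (0.0587), and without WT root replicate 1 of normoxia (0.0559) or 2 of hypoxia (0.0753). The calls of AT4G27290 and AT3G23550 were lost without WT hypoxic root replicate 2 (0.0638 and 0.0608 in limma), and that of AT4G27290 also without MPK6ox normoxic root replicate 2 (0.0531). In all, 13 of the 21 calls in roots held when each array was left out in turn.

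In hypoxic shoots 2 members rose and 2 fell (3.14% and 5.28% of all probe sets), with a median change of 0.06 over the members. AT1G19020 rose by 0.99 ± 0.12 (limma adjusted p = 4.65e-05). Its hypoxic and normoxic shoot arrays read 10.79 and 11.22 against 10.53 and 10.58 in MPK6ox, 10.26 and 9.87 against 8.63 and 9.10 in mpk6, and 10.23 and 10.31 against 8.76 and 9.14 in WT. The normoxic MPK6ox shoots thus already stood above the hypoxic shoots of mpk6 and WT. Their change was 0.45, beside 1.20 in mpk6 and 1.32 in WT. That difference between genotypes was not tested, and the MPK6ox and WT arrays also served to choose the member. AT2G36220 rose by 1.02 (limma adjusted p = 0.0129), a call lost without replicate 2 of hypoxic MPK6ox (0.0517), mpk6 (0.0522) or WT shoots (0.0528). The receptor kinase AT5G39030 fell by 0.48 (limma adjusted p = 0.00919) and the lectin AT5G18470 by 0.47 (0.0358). The call of AT5G18470 was lost without any of 9 arrays, both arrays of each MPK6ox shoot group, both of hypoxic and replicate 2 of normoxic mpk6 shoots, and replicate 2 of each WT shoot group (limma adjusted p = 0.0544 to 0.137). Without hypoxic MPK6ox shoot replicate 2 alone, 2 members were called in place of 4.

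The hypoxia change differed between organs for 7 members in the test of that difference itself, 6 of them lower in roots and 1 higher (4.31% and 3.23% of all probe sets). Roots minus shoots, the change differed by -1.27 ± 0.17 for AT1G19020 (limma adjusted p = 0.000149), which is the member that kept its call under every alternative, the covariate included. It was -0.28 in roots and 0.99 in shoots. The VQ protein AT1G78410 differed by -1.37 ± 0.28 (limma adjusted p = 0.00554), at -0.98 in roots and 0.40 in shoots.

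In the contrast of mpk6 arrays alone, limma called 5 members lower and 1 higher in hypoxic roots (6.3% and 3.71% of all probe sets). These changes are independent of the choice, but the spread behind the calls was estimated from all 25 arrays. The median change was -0.34. This median includes replicate 1 of the hypoxic roots, the array that stood apart, and is not given without it. The members averaged 7.34 on that array and 7.94 on replicate 2, against 7.95 and 8.11 in normoxic mpk6 roots. In the mpk6 root arrays 0 of the 5 photosynthesis markers passed the test (0.56 to 1.14) and 2 of the 3 root markers fell. AT3G61930 fell by 1.55 ± 0.25 (limma adjusted p = 0.000586), with arrays of 6.28 and 6.54 in hypoxia against 7.79 and 8.14 in normoxia, and kept its call without each array. AT3G58550 fell by 1.34, AT2G18370 by 1.22, AT4G28940 by 1.04 and UGT72E2 by 0.99, whereas AT5G39030 rose by 0.63. These 5 further calls each depended on single arrays. Without replicate 1 of the hypoxic mpk6 roots, the array that stood apart, AT3G61930 was called lower and AT2G36220 higher (2.07), and the limma adjusted p was 0.067 for AT3G58550, 0.278 for AT2G18370 and 0.213 for UGT72E2. AT5G39030 was then at 0.18 (limma adjusted p = 0.559). Without replicate 2 of the same group, hypoxic mpk6 roots rested only on the array that stood apart. The changes were then -1.68 for AT3G61930, -1.57 for AT2G18370, -1.53 for AT3G58550, -1.11 for UGT72E2, -1.04 for AT4G28940 and 1.08 for AT5G39030. Without replicate 1 of the normoxic mpk6 roots AT3G61930 alone was called, with a limma adjusted p of 0.0596 for AT3G58550, and without replicate 2 AT3G61930 and AT3G58550 were called. AT4G28940 and AT5G39030 each lost the call without any of 21 arrays (limma adjusted p = 0.0506 to 0.284 and 0.0511 to 0.559). In hypoxic mpk6 shoots AT1G19020 was called higher, by 1.20 (limma adjusted p = 0.00559, against 0.761% of all probe sets called higher). The call of AT1G19020 was lost without replicate 1 of the normoxic (0.103) or hypoxic mpk6 shoots (0.0872), and AT3G09405 was called as well, at 0.98, without hypoxic replicate 2.

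**Figure D5:**
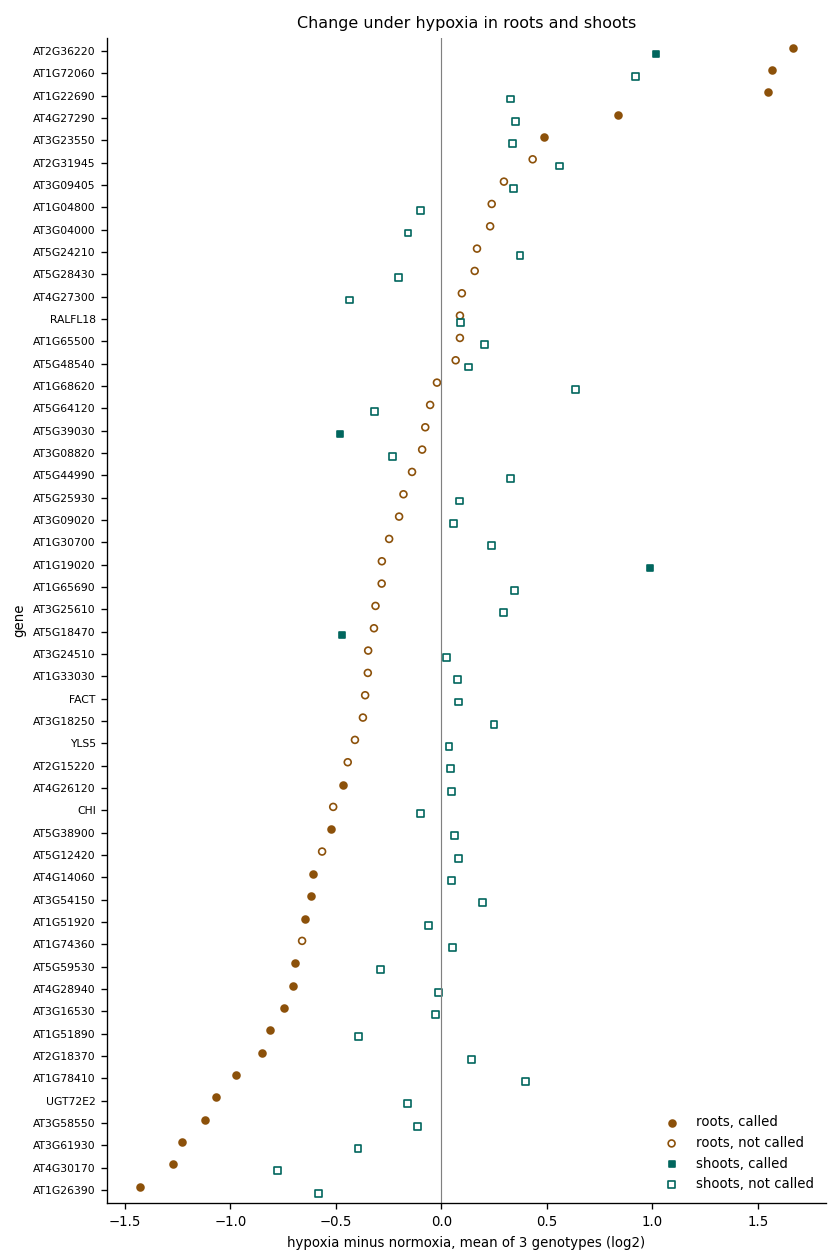
Each row is 1 of the 52 genes, with hypoxia minus normoxia (log2, mean of the 3 genotypes) in roots (circles) and shoots (squares). Filled points passed limma's test at an adjusted p under 0.05, which in roots were 5 rises, up to 1.67 for AT2G36220, and 16 falls, down to -1.43 for AT1G26390, and in shoots 2 rises and 2 falls.

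Genes of 7 related pathways were read in the same contrast. Here, as for the organ markers, measured means that the probe table gave the gene a probe set of its own. MPK6ox minus WT averaged over the 4 pairs was called for 522 probe sets (2.29%), 1.41% of all probe sets higher and 0.884% lower. Of 23 different measured genes of these lists, limma called 0, and 2 had an unadjusted p under 0.05, the defensin PDF1.2 (0.31 ± 0.12, limma adjusted p = 0.293) and the low-oxygen gene AT4G33560 (-0.21 ± 0.09, 0.414). Of 16 genes known to be linked to these kinases in defence or stress, 3 were measured, and STZ differed by 0.27, WRKY53 by 0.20 and WRKY22 by -0.03. For salicylic acid and pathogen defence, 3 of 19 were measured, with a median of 0.08. Of the camalexin and indole glucosinolate genes 1 of 18 was measured (UGT74B1, 0.12), of glutathione transferases 1 of 17 (GSTU25, 0.50 ± 0.28), and of jasmonate genes 1 of 15, which was PDF1.2. Of phenylpropanoid and lignin genes 2 of 17 were measured (HCT at -0.09 and CCR2 at -0.11), and of low-oxygen genes 13 of 25, with a median of 0.01. None of the measured list genes was a member, and the median over all probe sets was 0.01. Genes not counted as measured may still have probe sets on the arrays. The probe table left 8730 probe sets unlisted and gave 503 several genes. Such genes were not analysed here, so the counts speak only for those named or counted.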

How the data were processed

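The deposited log2 values of 25 ATH1 arrays come from RMA, named in the submitters' processing notes, and the RNA was labelled with biotin in 2 cycles per the labels. Whether RMA ran over all arrays jointly is not given in the sources used here. Values were used as deposited, with no filter. No check of signal against background was made, folds are ratios of array values, and the number of arrays limits precision.

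The 64 control probe sets were left out. Genes were named through the platform's probe table (503 of the other probe sets with several genes, 8730 not listed), and all 52 members matched RefSeq annotation of TAIR10.1, used for names and neighbours. For neighbours, 51 of them were placed in the order of protein-coding genes. Promoters and proteins were not analysed here. MPK6ox minus WT served for the choice. The contrasts of organ and hypoxia came from 1 limma fit (limma 3.58.1, R 4.3.3) of 12 group means, with 13 residual and 3.41 prior degrees of freedom, two-sided and adjusted after Benjamini and Hochberg over all tested probe sets. A call is an adjusted p under 0.05. The fit was tested on simulated data, and tables and figures were made with Python 3.11.15 and matplotlib 3.10.9.

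The members and lists were chosen with earlier results of these data known. Every member could be named, the 15 largest with array values, and in each test the 5 largest calls each way. Alternatives were the replicate number as a block, quantile normalization, centring on array medians, leaving out the dimmest 5687 probe sets, trend and robust settings, each organ fitted alone, each array left out and, after seeing the data, the photosynthesis covariate.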

Additional observations from a re-analysis of the deposited data

Results flagged for a closer look

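The change under hypoxia differed between roots and shoots for 7 of the 52 transcripts by limma's test of that difference, over the 3 genotypes. Roots minus shoots, it was -1.37 for AT1G78410, -1.27 for AT1G19020, -1.01 for AT3G58550, -0.99 for AT2G18370, -0.91 for UGT72E2, -0.83 for AT3G61930 and 1.22 for AT1G22690. AT1G19020 rose in shoots (0.99) and was at -0.28 in roots, whereas the others changed in roots (-0.98, -1.12, -0.85, -1.07, -1.23 and 1.55 for AT1G78410, AT3G58550, AT2G18370, UGT72E2, AT3G61930 and AT1G22690) and did not pass the test in shoots. The call of AT1G22690 was lost without any of 21 arrays (limma adjusted p = 0.0501 to 0.0948) and that of AT2G18370 without any of 13 (0.0529 to 0.0746). The photosynthesis markers rose by 1.41 to 2.04 more in roots than in shoots, and their part in these differences was not tested.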

How the results depend on the processing

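The organ difference held best: 47 to 49 members were called with each array left out (32 to 40 in mpk6 alone). With each array left out, hypoxia in roots gave 17 to 25 calls, in shoots 2 to 6, their difference 5 to 10, mpk6 roots 1 to 14 and mpk6 shoots 0 to 2, MPK6ox minus WT called 399 to 556 probe sets, and the rule gave 42 to 66 members. The highest count for mpk6 roots came with hypoxic mpk6 roots represented only by the array that stood apart. At a mean difference of 1 log2 the rule gave 17 members. With the photosynthesis covariate, hypoxia in roots gave 3 calls and the organ difference of the change 1. All 16 falls in roots kept their direction (12 larger, median SE 0.35 with and 0.18 without the covariate), as did the 6 lower in the difference (4 larger). AT1G22690 (-0.042), AT3G23550 (-0.050), AT1G72060 (-0.21) and AT4G27290 (-0.17) then changed sign in roots, and AT1G22690 (-0.37) in the difference. These sizes and signs are a description, since the covariate itself moved with hypoxia and, within hypoxic roots, with replicate number. The other alternatives moved no count by over 1.5 times except the replicate block. With the replicate number as a block, the organ difference of the change gave 11 calls, mpk6 roots 13 and MPK6ox minus WT 792 (521 higher and 271 lower). Same-numbered arrays of different groups deviated together (median r = 0.30, lowest -0.03), and in all 12 groups the members' median was higher in replicate 2 than in replicate 1, by 0.07 to 0.53. The labels do not say what a number shares. Of 59 single calls followed, 181 results fell below the threshold with the same direction under an alternative and 1650 did not change. Of the 21 calls in hypoxic roots 1 held under every alternative, the covariate included. With the roots fitted alone, AT1G51920, AT5G38900, AT4G27290, AT4G26120, AT1G72060 and AT1G26390 lost the call (limma adjusted p = 0.0566 to 0.0909). The group size of 2 or 3 arrays limits every call.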
